A study of Sus scrofa with 6 samples.

Results

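The centromere, kinetochore and spindle checkpoint genes were followed in IPEC-J2 cells, a non-transformed epithelial line from the jejunum of newborn pigs, given the bile acid chenodeoxycholic acid (CDCA) or vehicle. The members were taken by name: any gene named CENP plus 1 letter, and a written list of kinetochore, checkpoint and chromosomal passenger genes. By that rule, 38 of the 31908 gene IDs in the expression table were members. Of the 38, 27 reached a mean of at least 1 TPM (transcripts of the gene per 1000000 transcripts) over all libraries and were tested. Both groups came from the same line, and treatment was the only difference that the labels give. The CON group (3 libraries) received PBS, the CDCA group (3 libraries) received CDCA at 50 μM, and both were collected after 24 h. The study calls its replicates biological, but the labels do not say whether the 3 libraries of a group came from separate cultures, so p-values measure the spread between these libraries, which may be technical. The gene CDCA8 encodes borealin and shares only its letters with the treatment.

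A centromere is the stretch of chromosome marked by nucleosomes that hold the histone variant CENPA. On it sits a constitutive network of CENP proteins, and at mitosis this network carries the outer KMN network (KNL1, the MIS12 complex and the NDC80 complex), which grips spindle microtubules. Kinetochores without a microtubule recruit the spindle checkpoint proteins, which hold back anaphase, and the chromosomal passenger complex around the kinase AURKB releases faulty attachments. The mRNA of many of these genes peaks in G2 and mitosis, so it is a familiar mark of dividing cells in the intestinal epithelium. In bulk RNA, fewer cells in mitosis and less of an mRNA per cell cannot be told apart.

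The values were TPM estimated by the authors with RSEM, which corrects for transcript length. Levels of different genes are compared here only as listed. Each library's listed values added up to between 351770 and 366073 TPM, less than the 1000000 on which the unit is based. The files used here hold no read counts, so the counting error of single values could not be given. Some genes that dividing cells need were listed near 0, such as PCNA at 0.28 to 0.53 TPM and TOP2A at 0 to 0.19 TPM, so a value near 0 says only what was listed. The mRNAs encoded by mtDNA made up 13.8% to 15.03% of all listed TPM in CON libraries but 2.90% to 3.45% in those given CDCA. When this share was left out of the totals, the log2 fold changes of all tested genes shifted by a median of -0.13. Of the epithelial markers, EPCAM (118 to 173 TPM), KRT8, KRT18 and CLDN4 were expressed, whereas CDH1, VIL1 and CDX2 stayed under 1 TPM in every library. Summed over the 7 listed epithelial markers, the level was 624 to 648 TPM in CON and 1182 to 1322 TPM in CDCA. Most of that gap was CLDN4, at 215 to 237 TPM in CON and 765 to 863 TPM in CDCA. KRT8 was at 220 to 238 TPM and 190 to 225 TPM, and KRT18 at 64.6 to 66.4 TPM and 71.4 to 79.2 TPM. The part of these markers in the results was not tested. All 6 fibroblast markers stayed under 1 TPM. The 6 leukocyte markers summed to 20.6 to 25.5 TPM, mostly LYZ (15.8 to 19.9 TPM), and CD79A reached 1.62 to 4.28 TPM, whereas the defining marker PTPRC was at 0 to 0.01 TPM. Of the 3 listed endothelial markers, PECAM1 was at 1.12 to 2.14 TPM and the others stayed under 1 TPM.

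Differences were tested by limma on log2(TPM + 1) over the 8708 genes that reached 1 TPM on average, with p-values adjusted by the Benjamini-Hochberg method (FDR). A gene is said to have fallen where its FDR was under 0.05, and is called lower where its log2 fold change was also under -1. On this scale the change of a weakly expressed gene is understated, so the ratio of mean TPM is given as well for part of the genes.

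CDCA-treated cells held less mRNA of most of the tested kinetochore genes. Of the 27 tested members, 10 were called lower (37.0%), where 3.90% of all tested genes were called lower. None was called higher, against 3.51% of all tested genes. Without the fold limit, 23 of the 27 fell (85.2%), against 23.9% of all tested genes, and none rose, against 29.3%. The CDCA libraries lay entirely below the CON libraries for 24 of the 27 (88.9%), against 27.8% of all tested genes. Their median log2 fold change was -0.83 (quartiles -1.38 and -0.50), and that of all tested genes was 0.05. No tested member owed its place to 1 group alone, since the lowest mean in CDCA was 1.25 TPM. Summed over all 38 members, the level was 468, 451 and 423 TPM in CON and 221, 234 and 219 TPM in CDCA, a ratio of 0.502. With totals that left out the mtDNA-encoded mRNAs, 13 members were called lower, where 5.31% of all tested genes were, and the part of the mtDNA share in the result was not tested. With CON replicate 3 and CDCA replicate 2 left out together, 11 members were called lower, where 4.15% of all tested genes were.

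**Figure D1:**
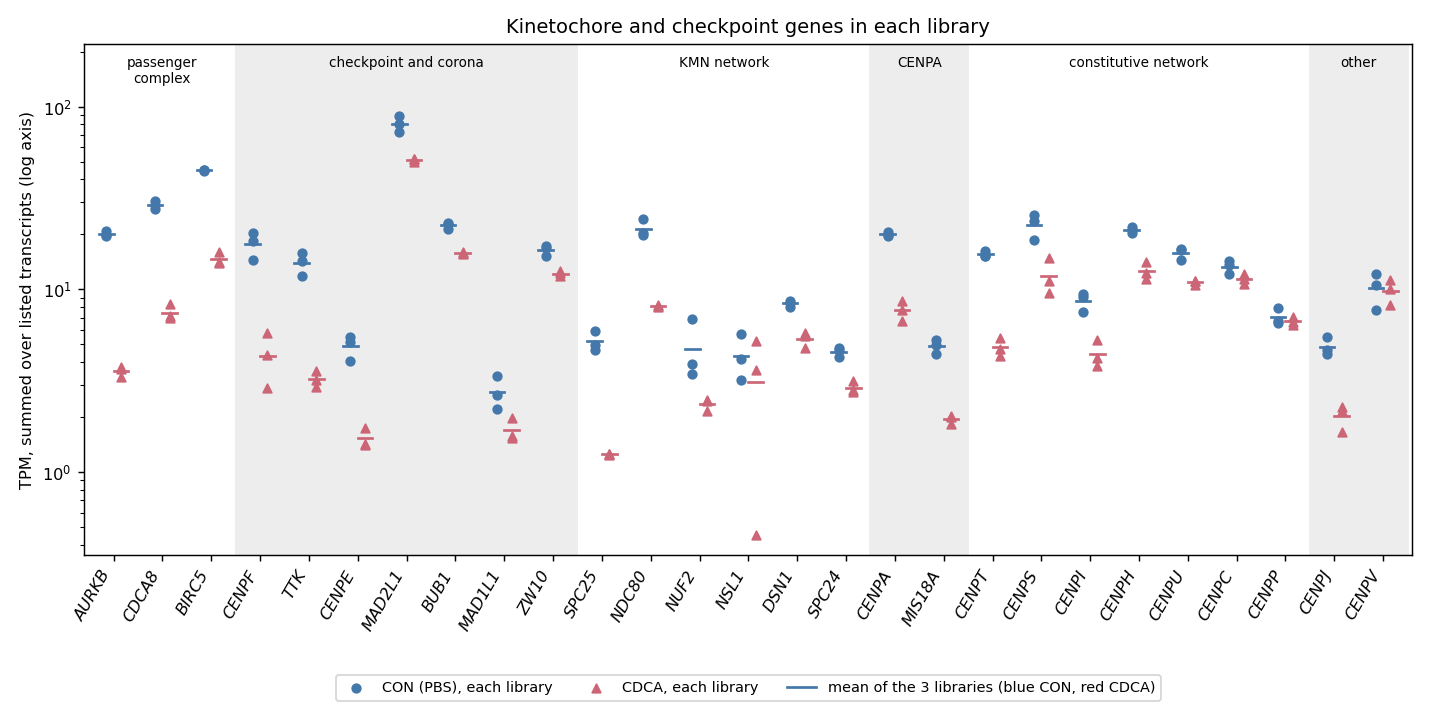
Level of each of the 27 tested genes in every library, as TPM summed over listed transcripts on a log axis, with circles for CON, triangles for CDCA and lines for group means. The groups are apart for 24 genes, and they overlap for NSL1, CENPP and CENPV. AURKB shows the widest gap (20.1 against 3.59 TPM).

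The 3 expressed genes of the chromosomal passenger complex were all called lower, against 3.90% of all tested genes. AURKB (ENSSSCG00000028924), the kinase of the complex that corrects chromosome attachment and is needed for cytokinesis, was listed at 20.8, 19.6 and 19.9 TPM in the CON libraries and at 3.68, 3.78 and 3.32 TPM after CDCA. Its lowest CON library lay over 5-fold above its highest CDCA library. The log2 fold change was -2.20 (limma FDR 3.3e-06, SE 0.07), and the ratio of means was 0.179. Only 30 of the 8708 tested genes had a lower log2 fold change.

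CDCA8 (ENSSSCG00000032909), or borealin, which helps to place the complex at the centromere, was listed at 30.4, 28.9 and 27.7 TPM in the CON libraries and at 6.96, 8.30 and 7.13 TPM after CDCA. The groups were well apart, and the log2 fold change was -1.83 (limma FDR 9.8e-06, SE 0.08). BIRC5 (ENSSSCG00000040486), or survivin, which docks the complex on centromeric chromatin, was listed at 44.18, 44.98 and 44.88 TPM in the CON libraries and at 14.10, 15.90 and 14.01 TPM after CDCA. Its CON libraries were among the tightest of all members, with a coefficient of variation of 0.976%. The log2 fold change was -1.55 (limma FDR 6.8e-06, SE 0.06), and the ratio was 0.328. INCENP, the scaffold that binds and activates AURKB, was listed at 0 to 0.08 TPM in all libraries and was not tested, so the table holds no usable value for the fourth subunit.

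The 95% intervals of the log2 fold change did not meet between AURKB (-2.36 to -2.04) and BIRC5 (-1.69 to -1.41). Ratios of 2 genes within a library do not depend on how the library was scaled. They were computed for 11 pairs of partner genes chosen after the values were seen, so they describe these libraries and carry no test. The ratio of AURKB to BIRC5 was 0.471, 0.435 and 0.443 in CON and 0.261, 0.238 and 0.237 in CDCA. AURKB mRNA was thus lower relative to BIRC5 mRNA in every CDCA library than in any CON library. The ratio of CDCA8 to BIRC5 moved less, from 0.649 ± 0.036 to 0.508 ± 0.014 (SD, n = 3 libraries each).

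Among the checkpoint and fibrous corona genes, all 7 tested genes fell and 3 of them were called lower, against 23.9% and 3.90% of all tested genes. TTK (ENSSSCG00000004466), or MPS1, the kinase that starts checkpoint signalling at unattached kinetochores, was listed at 15.8, 14.3 and 11.8 TPM in the CON libraries and at 3.57, 3.17 and 2.91 TPM after CDCA. Every CDCA library lay far below every CON library. The log2 fold change was -1.82 (limma FDR 4.6e-05, SE 0.12), with a ratio of 0.230. CENPF (ENSSSCG00000015581), a large corona protein that accumulates in G2, was listed at 18.4, 20.4 and 14.5 TPM in the CON libraries and at 4.37, 2.87 and 5.75 TPM after CDCA. Its CDCA libraries varied more than those of most other members, with a coefficient of variation of 33.3%. It was still called lower, with a log2 fold change of -1.84 (limma FDR 0.00056, SE 0.22). CENPE (ENSSSCG00000023296), the kinesin that carries chromosomes to the spindle equator, was listed at 5.14, 5.48 and 4.03 TPM in the CON libraries and at 1.42, 1.41 and 1.75 TPM after CDCA. It was called lower (log2 fold change -1.21, limma FDR 0.00031, SE 0.13), but that call rested on the sum of its transcripts.

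The other checkpoint genes fell by less. BUB1 (ENSSSCG00000030469), the kinase that marks centromeric chromatin and gathers checkpoint proteins, was listed at 23.1, 22.8 and 21.4 TPM in the CON libraries and at 15.7, 15.9 and 15.8 TPM after CDCA. The CDCA libraries differed from each other by only 0.871% (coefficient of variation), and the fall was clear although small. Its log2 fold change was -0.48 (limma FDR 0.00031, SE 0.05), and the ratio was 0.703. MAD2L1 (ENSSSCG00000036256), the protein that sequesters CDC20 while the checkpoint is on, had the highest listed level of the members in both groups. It was listed at 88.8, 79.9 and 72.4 TPM in the CON libraries and at 51.5, 51.9 and 49.5 TPM after CDCA, a log2 fold change of -0.64 (limma FDR 0.00052, SE 0.07). ZW10, which brings dynein and the MAD proteins to the kinetochore, fell from a mean of 16.4 to 12.2 TPM (log2 fold change -0.40, limma FDR 0.0020). With its highest listed transcript in place of the sum, the log2 fold change was -0.37 and the limma FDR 0.28. MAD1L1, the kinetochore anchor of MAD2L1, was listed at 2.63, 3.37 and 2.21 TPM in the CON libraries and at 1.58, 1.53 and 1.97 TPM after CDCA. Its log2 fold change of -0.46 had a limma FDR of 0.032 that rose over 0.05 when any of CON replicates 1 and 2 and CDCA replicates 1 and 2 was left out (0.067 to 0.089), was 0.073 with the replicate number as a block and was 0.077 with no filter on low values. With the highest listed transcript alone, the log2 fold change was -0.24 and the FDR was 0.19. BUB3, the partner of the BUB kinases, was listed at 0 in 4 libraries, at 1.07 TPM in CON replicate 2 and at 0.09 TPM in CDCA replicate 2, and was not tested.

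BUB1 and MAD2L1 moved nearly in step, with a within-library ratio of 0.280 ± 0.018 in CON and 0.310 ± 0.0074 in CDCA (SD, n = 3 libraries each). The ratio of TTK to BUB1, both checkpoint kinases, went from 0.685, 0.626 and 0.552 in CON to 0.228, 0.199 and 0.185 in CDCA. BUB1B, or BUBR1, carried no name in the table and was therefore outside the rule, but the reference table of gene symbols gives that symbol to ENSSSCG00000004782. That gene was listed at a mean of 26.9 ± 1.9 TPM in CON and 7.65 ± 0.74 TPM in CDCA (SD, n = 3 each). Its log2 fold change was -1.69 (limma FDR 1.8e-05, SE 0.09), and with it 11 of 28 genes were called lower. The ratio of BUB1B to BUB1, related proteins with different parts in the checkpoint, was 1.20 ± 0.041 in CON and 0.485 ± 0.051 in CDCA.

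**Figure D2:**
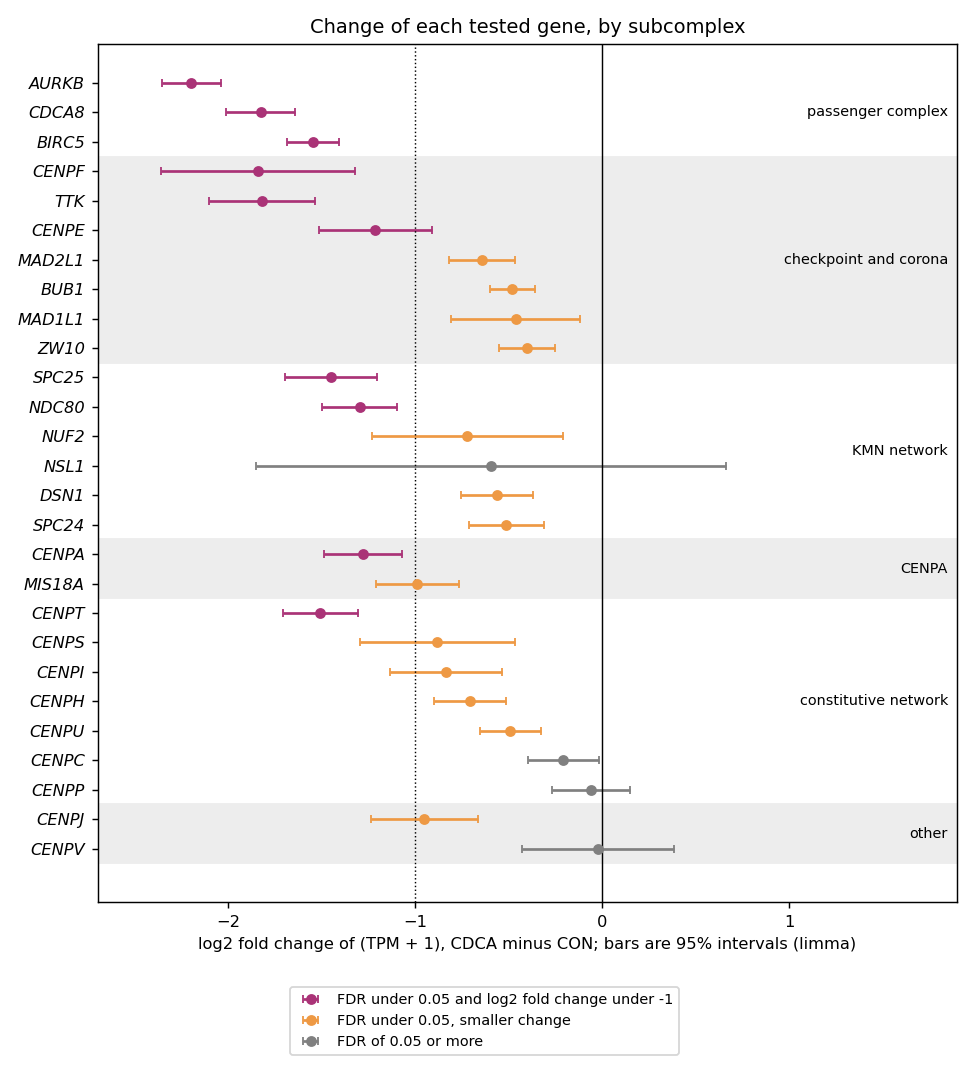
Log2 fold change of (TPM + 1) in CDCA minus CON for each tested gene, grouped by subcomplex, with 95% intervals from limma and a dotted line at -1. The 3 passenger complex genes lie between -2.20 and -1.55, whereas the constitutive network runs from -1.51 for CENPT to -0.06 for CENPP.

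In the KMN network, 5 of 6 tested genes fell and 2 were called lower, against 23.9% and 3.90% of all tested genes. Both were subunits of the NDC80 complex, the 4-part rod that binds microtubules. NDC80 (ENSSSCG00000003697), which holds the microtubule-binding head, was listed at 24.4, 19.7 and 20.3 TPM in the CON libraries and at 8.05, 8.17 and 8.07 TPM after CDCA. The CDCA libraries were nearly equal and all lay far below CON. The log2 fold change was -1.30 (limma FDR 4.6e-05, SE 0.08), with a ratio of 0.377. SPC25 (ENSSSCG00000015924), at the end that meets the inner kinetochore, was listed at 5.91, 4.95 and 4.68 TPM in the CON libraries and at 1.26, 1.25 and 1.24 TPM after CDCA. It showed the largest fall of the network, with a log2 fold change of -1.45 (limma FDR 6.3e-05, SE 0.10) and a ratio of 0.241.

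The remaining NDC80 complex subunits fell without reaching the fold limit. SPC24, which pairs with SPC25, went from a mean of 4.56 to 2.89 TPM (log2 fold change -0.51, limma FDR 0.0024, SE 0.08). NUF2, the partner of NDC80, was listed at 6.86, 3.89 and 3.43 TPM in the CON libraries and at 2.46, 2.16 and 2.47 TPM after CDCA. CON replicate 1 stood well above the other CON libraries. The log2 fold change was -0.72 (limma FDR 0.028, SE 0.21), and it was -0.47 (limma FDR 0.016) without that library. When any CDCA library was left out, it was -0.75 to -0.68 and the FDR rose over 0.05 (0.064 to 0.082), as it did with no filter on low values (0.071) and with CON replicate 3 and CDCA replicate 2 both left out (0.064). The ratio of SPC25 to SPC24 within a library was 1.28, 1.04 and 1.09 in CON and 0.448, 0.399 and 0.453 in CDCA. The listed mRNA levels of these partners were thus near parity in CON and not in CDCA. The ratio of NDC80 to SPC24 went from 4.72 ± 0.56 to 2.81 ± 0.17 (SD, n = 3 libraries each).

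Of the MIS12 complex, which joins the NDC80 complex to the inner kinetochore, DSN1 fell from 8.46, 8.59 and 8.05 TPM in CON to 5.56, 5.73 and 4.77 TPM in CDCA (log2 fold change -0.56, limma FDR 0.0014, SE 0.08). NSL1 did not pass the test (log2 fold change -0.60, limma FDR 0.38, SE 0.53). It was listed at 4.14, 5.67 and 3.18 TPM in the CON libraries and at 0.45, 5.22 and 3.61 TPM after CDCA. CDCA replicate 1 alone was low, and without it the log2 fold change was 0.03. MIS12 (0.11 to 0.58 TPM), PMF1 (0 to 0.05 TPM) and ZWINT (0.31 to 1.35 TPM), which links KNL1 to the corona, were not tested.

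CENPA and the factor that helps to load it both fell. CENPA (ENSSSCG00000038543), the histone variant that defines the centromere, was listed at 19.7, 20.5 and 19.9 TPM in the CON libraries and at 7.70, 8.67 and 6.71 TPM after CDCA. The CON libraries were within 1 TPM of each other, and all CDCA libraries lay under 9 TPM. CENPA was called lower, with a log2 fold change of -1.28 (limma FDR 5.8e-05, SE 0.09) and a ratio of 0.384. MIS18A, part of the complex that licenses new CENPA deposition after mitosis, was listed at 5.27, 4.41 and 4.93 TPM in the CON libraries and at 2, 2.03 and 1.83 TPM after CDCA. Its ratio of 0.401 was close to that of CENPA, but its log2 fold change of -0.99 (limma FDR 0.00020, SE 0.09) stopped just short of the limit. It passed the limit in 7 of 16 alternatives (-1.27 to -1.001), among them a pseudocount of 0.1 TPM (-1.27) and each of the 3 other scalings (-1.16 to -1.03).

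Of the 7 tested genes of the constitutive centromere network, 5 fell and 1 was called lower, against 23.9% and 3.90% of all tested genes. CENPT (ENSSSCG00000002768), which carries NDC80 complexes directly, was listed at 16.2, 15.1 and 15.3 TPM in the CON libraries and at 4.32, 5.43 and 4.72 TPM after CDCA. It was far lower in every CDCA library (log2 fold change -1.51, limma FDR 2.7e-05, SE 0.08, ratio 0.311). CENPC (ENSSSCG00000008921), the other protein of the network that carries the outer kinetochore and the one that binds CENPA nucleosomes, was listed at 14.2, 13.5 and 12.1 TPM in the CON libraries and at 12.1, 10.6 and 11.4 TPM after CDCA. The groups barely separated, and CENPC did not pass the test, with a log2 fold change of -0.21 (95% interval -0.40 to -0.02, limma FDR 0.062). It did pass with totals that left out the mtDNA-encoded mRNAs (-0.35, limma FDR 0.012), with each library set to the same median ratio (-0.26, limma FDR 0.023) and without CON replicate 3 (-0.27, limma FDR 0.030).

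The listed mRNA levels of CENPT and CENPC were alike in CON and apart in CDCA. The ratio of CENPT to CENPC within a library was 1.14, 1.12 and 1.26 in CON and 0.357, 0.510 and 0.414 in CDCA. The ratio of CENPA to CENPC went from 1.51 ± 0.13 to 0.680 ± 0.12 (SD, n = 3 libraries each), and it was lower in every CDCA library.

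Genes of the middle of the network fell by intermediate amounts. CENPS, a small histone-fold protein that pairs with CENPX and also serves in DNA repair, was listed at 23.7, 18.6 and 25.4 TPM in the CON libraries and at 9.58, 14.9 and 11.2 TPM after CDCA. Its libraries were more scattered than those of CENPT, and its log2 fold change was -0.88 (limma FDR 0.0052, SE 0.17). It passed the fold limit in 3 of 16 alternatives, without CON replicate 2 (-1.01), without CDCA replicate 2 (-1.04) and with totals free of mtDNA-encoded mRNAs (-1.03). CENPI, a subunit of the group that also holds CENPH, fell from 9.38, 9.02 and 7.53 TPM to 4.21, 5.25 and 3.80 TPM (log2 fold change -0.83, limma FDR 0.0016, SE 0.13). It was called lower (-1.03) only when CON replicate 3 and CDCA replicate 2 were both left out. CENPH went from 21.9, 21.0 and 20.4 TPM to 14.1, 11.4 and 12.2 TPM (log2 fold change -0.71, limma FDR 0.00047, SE 0.08). The within-library ratio of CENPI to CENPH overlapped between the groups, at 0.369 to 0.430 in CON and 0.300 to 0.461 in CDCA. CENPU, which gives the kinase PLK1 a place at the centromere, fell from a mean of 15.8 to 10.9 TPM (log2 fold change -0.49, limma FDR 0.0011, SE 0.07).

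CENPP, a partner of CENPU in the same subcomplex, did not pass the test. It was listed at 6.54, 6.70 and 7.91 TPM in the CON libraries and at 6.40, 7.07 and 6.61 TPM after CDCA, with overlapping groups. The log2 fold change was -0.06 (limma FDR 0.58), and the 95% interval, from -0.27 to 0.15, leaves room for a small change in either direction. It was 0.01 without CON replicate 3. CENPK, CENPL, CENPM, CENPN, CENPQ and CENPW were not tested, being listed between 0 and 1.07 TPM.

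Of the remaining CENP names, CENPJ is a centriole protein rather than a kinetochore part. It fell from 4.44, 5.47 and 4.66 TPM in CON to 2.28, 1.65 and 2.17 TPM in CDCA (log2 fold change -0.95, limma FDR 0.00077, SE 0.12, ratio 0.419). It passed the fold limit in 5 of 16 alternatives (-1.22 to -1.003). CENPV was listed at 7.71, 12.1 and 10.5 TPM in the CON libraries and at 10.02, 11.27 and 8.25 TPM after CDCA. The groups overlapped, and the log2 fold change was -0.02 (95% interval -0.43 to 0.38, limma FDR 0.92), with a sign that depended on which library was left out (-0.19 to 0.10).

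The order of the listed levels also differed between the groups. MAD2L1 led both, with 80.4 ± 8.2 TPM in CON and 50.9 ± 1.3 TPM in CDCA (SD, n = 3 each), and BIRC5 and CDCA8 came next in CON. From CENPS down to CENPA, at places 4 to 9 in CON, 6 genes lay between 22.6 and 20.0 TPM, and each differed from the next by less than their SDs added together. AURKB was at place 8 of 27 in CON and at place 18 in CDCA, CDCA8 at places 3 and 12, and CENPF at places 10 and 17. Several genes moved the other way, such as CENPC (places 15 and 7), CENPV (16 and 9), CENPP (19 and 13) and ZW10 (11 and 5). Of these, ZW10 fell, and CENPC, CENPV and CENPP did not pass the test. The mean TPM of each was lower in CDCA, so a higher place was not a higher level.

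**Figure D3:**
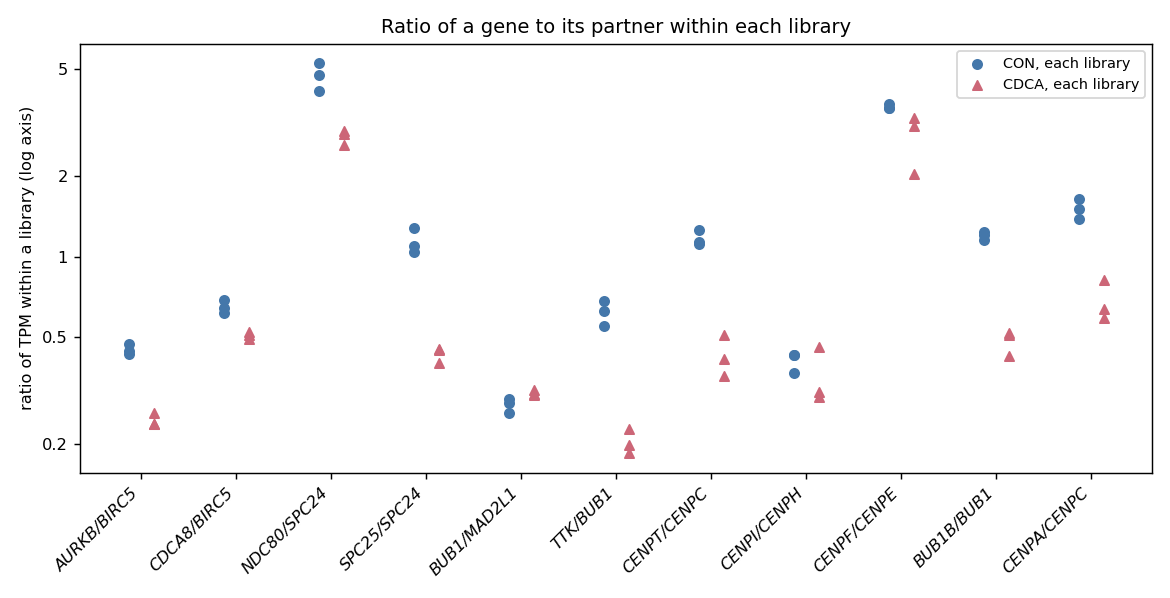
Ratio of the TPM of a gene to that of a partner in each library, on a log axis, with circles for CON and triangles for CDCA. The groups are apart for 10 of the 11 pairs and overlap for CENPI to CENPH. BUB1 to MAD2L1 is the one pair whose ratio is higher in CDCA (0.310 against 0.280).

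The CENPF to CENPE ratio also differed between the groups, at 3.59 to 3.73 in CON and 2.04 to 3.29 in CDCA, and its lowest value was CDCA replicate 2, where CENPF was lowest.

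Most of the tested members (22 of 27) had several listed transcripts, which are numbered here by their mean level, since the table gives no transcript IDs. Those shown had a mean of at least 1 TPM in CON. TTK transcript 3, ZW10 transcript 4, CENPI transcript 2 and both of CENPE had a CDCA mean under 1 TPM, so they were taken through CON alone and had to be lower in CDCA. For NDC80, transcript 1 went from a mean of 11.97 to 5.10 TPM and transcript 2 from 8.98 to 2.82 TPM, and both lay lower in every CDCA library, with ratios of 0.426 and 0.315. Transcripts 1 and 2 of TTK had ratios of 0.174 and 0.307, and those of DSN1 had ratios of 0.674 and 0.569. Each of these transcripts also lay lower in every CDCA library than in any CON library. In ZW10 the transcripts differed. Its transcript 2 was listed at 6.97, 1.99 and 5.72 TPM in the CON libraries and at 4.45, 5.05 and 5.24 TPM after CDCA, a ratio of 1.00. Its transcripts 1 and 3 had ratios of 0.723 and 0.591. The 2 main transcripts of CENPE traded places between libraries. Transcript 1 was listed at 2.24, 3.42 and 0.06 TPM in CON, where transcript 2 was listed at 1.28, 0.66 and 2.30 TPM, and with transcript 1 alone the gene did not pass the test (log2 fold change -0.66, limma FDR 0.38).

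**Figure D4:**
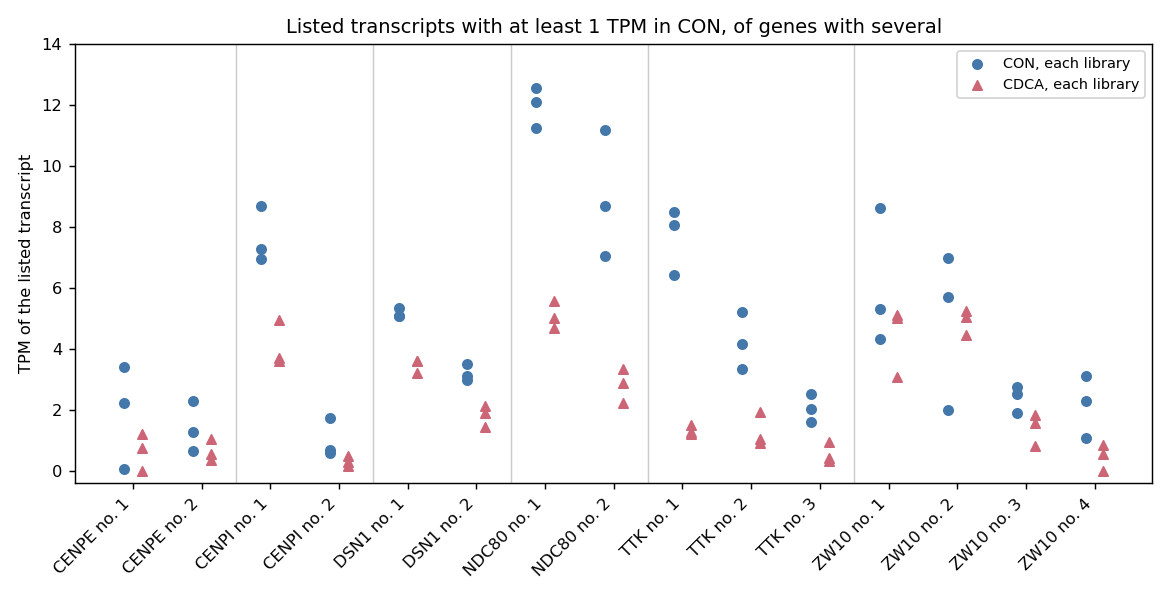
TPM of each listed transcript with a mean of at least 1 TPM in CON, for 6 genes that have more than 1 such transcript, with circles for CON and triangles for CDCA libraries. Of these, 5 have a CDCA mean under 1 TPM and were taken through CON alone. Both NDC80 transcripts and transcripts 1 and 2 of TTK are apart between the groups, whereas ZW10 transcript 2 overlaps (ratio 1.00).

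A further 27 genes of the kinetochore and its regulators that the rule did not take were compared in the same fit. Of these, 24 were listed by symbol and 22 were tested. SPAG5 reached the limit for testing only through CON and is left out of the counts. Of the other 21, 10 were called lower (47.6%, against 3.90% of all tested genes) and none higher. Without the fold limit, 18 of the 21 fell, against 23.9% of all tested genes, and 1 rose, against 29.3%, and their median log2 fold change was -0.86. HJURP, the chaperone that places CENPA, was listed at 9.81, 10.1 and 10.2 TPM in the CON libraries and at 1.63, 2.19 and 1.92 TPM after CDCA. It lay far lower in every CDCA library (log2 fold change -1.92, limma FDR 1.4e-05, SE 0.09), so CENPA, MIS18A and the chaperone all fell. SPAG5, or astrin, which steadies attached kinetochores, was listed at 3.25, 3.85 and 2.39 TPM in the CON libraries and at 0, 0 and 0.31 TPM after CDCA, where it was at 0 in 2 of 3 libraries. KIF2C, a kinesin that takes microtubules apart at faulty attachments, fell from a mean of 36.6 to 12.1 TPM (log2 fold change -1.52, limma FDR 1.2e-05, SE 0.07).

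The gene of that list that rose was CLASP2, a microtubule plus-end protein that also works in interphase cells, from 5.07, 5.28 and 4.93 TPM in CON to 9.06, 7.89 and 8.54 TPM in CDCA. Its log2 fold change of 0.64 (limma FDR 0.00049, SE 0.07) was under the fold limit. It is named here after its value was seen.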

How the data were processed

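RNA of IPEC-J2 cells was sequenced as 3 CON and 3 CDCA libraries. The values were TPM that the authors estimated with RSEM and deposited as 63041 rows, 1 per listed transcript, without transcript IDs or read counts. The submitters' processing notes name Bowtie 0.12.2 and mm10, a mouse build, although the gene IDs are those of Ensembl pig genes. The annotation release is not given in the sources used here.

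Rows were summed per gene ID (31908). The 8708 genes averaging 1 TPM or more were tested on log2(TPM + 1) with limma 3.58.1 in R 4.3.3 (lmFit and eBayes with a variance trend), over the 6 libraries without covariates, with Benjamini-Hochberg adjustment. The procedure was tested on simulated data. A call needed an FDR under 0.05 and a log2 fold change beyond 1 in either direction. BUB1B and KNL1, names of the rule, matched no deposited name. All members are named, and of the other kinetochore genes those with the 3 largest changes and, chosen after its value was seen, CLASP2. The members and lists were chosen with earlier results of these data known. The partner pairs, and the fit without CON replicate 3 and CDCA replicate 2, were chosen after seeing these values. Gene sequences and promoter motifs were not used here.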

Additional observations from a re-analysis of the deposited data

How the results depend on the processing

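The count of members called lower was 10 and lay between 9, with the highest listed transcript of each gene, and 13, with totals free of mtDNA-encoded mRNAs, over 16 alternatives. It was 10 to 12 when 1 library was left out. No member was called higher under any of them. Of the 10 called members, 9 were called under all 16, the exception being CENPE with the highest transcript. The count that fell without the fold limit was 23 and ranged from 20 to 24. The median log2 fold change of the members was -0.54 with no filter on low values, where the 11 members listed near 0 enter, and -0.97 to -0.72 otherwise. Leaving out 1 library at a time turned the sign of CENPP (-0.11 to 0.013), NSL1 (-1.02 to 0.033) and CENPV (-0.19 to 0.10), none of which passed the test. The cause was not tested. Libraries with the same replicate number did not vary together (correlations -0.035, -0.092 and -0.051), and no library correlated best with its own number. With the replicate number as a block, 10 members were called lower and 22 fell. Of the other 21 kinetochore genes, without SPAG5, 10 to 11 were called lower and none higher over the same alternatives. Without read counts no detection limit could be set for the 11 untested members, listed at means of 0 to 0.7 TPM, and they cannot be said to be absent. The search of promoter motifs was not run.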

Other observations

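Further genes whose names or descriptions tie them to the centromere, the kinetochore or the spindle lay outside the rule. They were picked after their values were seen, so they are given with no test. A gene described in the table as major centromere autoantigen B-like, a name used for proteins like the DNA-binding centromere protein CENPB, was listed at 148.88, 149.08 and 148.85 TPM in the CON libraries and at 53.6, 58.5 and 52.1 TPM after CDCA, higher in CON than any member. AURKA, the spindle pole relative of AURKB, was found by its description at 39.2 ± 3.4 TPM in CON and 13.7 ± 0.64 TPM in CDCA (SD, n = 3 libraries each). BORA, which activates AURKA, was listed at 14.4 ± 1.2 TPM in CON and 5.33 ± 0.90 TPM in CDCA. The genes described as KNL1 and CENPX, names that the rule holds but the table's name column does not give, were listed at 0 to 0.09 and at 0.03 to 0.24 TPM.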
